A study of Mus musculus with 16 samples.

Results

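Heat shock and unfolded protein response genes were followed in the hypothalamus of 16 mice, 8 control and 8 KO chimera, each measured on its own 1-colour Agilent array. The 33 genes were chosen by name, as chaperones of the cytosol (10 genes), of mitochondria (2) and of the endoplasmic reticulum with its stress sensors (15), and as ATF4 with its targets (6). Of these, 32 had a probe under their own name, and all 32 were among the 24363 genes tested. They were read by 41 probes, 40 of which passed the filter on dim probes. Hspa1b had no probe under its name. The Hspa1a probe also lists a transcript of Hspa1b in the array's annotation, so its signal belongs to either gene.

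According to the labels, KO chimeras were C57BL/6J mice that received 950 Rad and then bone marrow from Adrb1tm1BkkAdrb2tm1Bkk/J mice, which lack the beta-1 and beta-2 adrenergic receptors. The marrow was injected once behind the eye, in the proportion 1 to 4, knockout against C57BL/6J, and tissue was taken 2 to 3 months later. The same treatment text and the same irradiated C57BL/6J strain stand on all 16 mice, but only KO chimeras carry a field for a marrow donor. Whether control mice were irradiated or given marrow is therefore not settled, and irradiation, transplantation and the donor genotype cannot be told apart. In such chimeras the recipient's neurons and glia keep their own receptor genes, and only cells that descend from the marrow can lack them. Age and sex are not given in the sources used here. Nothing in the labels says whether KO chimeras shared marrow donors, and the p-values rest on the spread among the 16 mice.

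Cells keep proteins folded with chaperones, and raise the supply through separate pathways. In the cytosol, HSF1 binds heat shock elements and switches on genes such as Hspa1a and Dnajb1. In the endoplasmic reticulum, where secreted and membrane proteins fold, unfolded protein activates the sensors ATF6, IRE1 (which splices Xbp1 mRNA) and PERK. PERK and related kinases phosphorylate eIF2 alpha, which lowers translation in general but raises translation of ATF4, a transcription factor for amino acid synthesis and stress genes. Neurons of the hypothalamus that release peptides use this secretory machinery heavily. Xbp1 splicing, ATF4 protein and phosphorylation of eIF2 alpha are not seen by these arrays, which measure RNA level only.

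The promoters were searched for elements of the factors known to act on each class. RefSeq promoters (250 bases before to 50 after the start, GRCm38.p6) were matched for 27 of the 33 genes, 30 promoters in all. The motifs were picked from textbook knowledge after values had been seen, and were searched on both strands. An ER stress response element (CCAAT, then 9 bases of any kind, then CCACG) stood in 7 of the 30 promoters, against 0.119% of all 32851 promoters. An element for ATF4 with C/EBP (TGATGNAA) stood in 5 of 30, against 3.97%. A heat shock element of 3 units (GAA, TTC and GAA, or the reverse, with 2 bases of any kind between units) stood in 4 of 30, against 0.603%. The inverted pair GAANNTTC, a part of it, stood in 8 of 30, against 7.86%. These 4 and 8 promoters are not independent, because Hspd1 and Hspe1 share the same bases on opposite strands and Hsph1 has 2 overlapping promoters. The pair TTCNNGAA stood in 4 of 30 (8.52% of all), and the XBP1 element TGACGTGG in 0 of 30 (0.676% of all). A match is a description of letters and not a test of binding. Because the motifs were picked for these classes of genes, their shares beside all promoters are not a test of enrichment either. Windows of 30 bases follow, read 5′ to 3′ along the gene, with the matched letters in capitals, for 3 heat shock genes, 4 ER genes and 3 ATF4 targets.
Hsph1 (chr5:149636279-149636308, minus strand): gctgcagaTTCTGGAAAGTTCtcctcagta
Hspa1a (chr17:34972242-34972271, minus strand): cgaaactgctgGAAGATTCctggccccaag
Hspd1 (chr1:55088050-55088079, minus strand): gccttccgGAAGGTTCTAGAAcggaccgtg
Hspa5 (chr2:34772020-34772049, plus strand): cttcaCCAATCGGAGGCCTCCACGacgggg
Canx (chr11:50325794-50325823, minus strand): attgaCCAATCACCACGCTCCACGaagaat
Creld2 (chr15:88819515-88819544, plus strand): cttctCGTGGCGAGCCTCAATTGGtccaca
Dnajc3 (chr14:118937822-118937851, plus strand): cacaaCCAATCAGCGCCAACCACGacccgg
Asns (chr6:7693214-7693243, minus strand): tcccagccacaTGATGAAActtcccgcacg
Chac1 (chr2:119351038-119351067, plus strand): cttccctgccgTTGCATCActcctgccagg
Trib3 (chr2:152344028-152344057, minus strand): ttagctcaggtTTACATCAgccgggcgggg
The Hspa1a and Hspa1b promoters differ at 4 of 300 positions, and the window shown is the same in both.

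Differences between the groups were small and of both signs. Of the 32 genes tested, 1 was called lower (Atf4) and 0 were called higher by limma with Benjamini-Hochberg adjustment over all genes (adjusted p under 0.05), beside 3.83% of all genes tested. By the same rule 933 genes were called in all, 250 higher (1.03%) and 683 lower (2.80%). Among the 32 genes, 17 differences (KO chimera minus control, log2) were below 0 and 15 above, with a median of −0.01, beside 0.00 for all genes tested. An unadjusted p under 0.05 was reached by 9 of 32, beside 20.7% of all genes. The groups overlapped for each of the 32, while 0.956% of all genes had groups without overlap. The 95% intervals of all 32 exclude a 2-fold difference in either direction, and those of 31 exclude a 1.5-fold one, the exception being Atf3. Cytosolic chaperones had a median of 0.01 (9 tested), mitochondrial chaperones −0.06 (2), ER chaperones and sensors 0.01 (15), and ATF4 with its targets −0.10 (6). Centring each array on its median in place of its 75th percentile moved the median of all genes to −0.13 and the class medians to −0.11, −0.18, −0.11 and −0.22. The cytosolic median was −0.08 without control 6, and the ER median 0.09 with normexp background correction followed by quantile normalization. Median centring called 4168 genes, of which 178 were higher, and 5 of the 32.

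**Figure D1:**
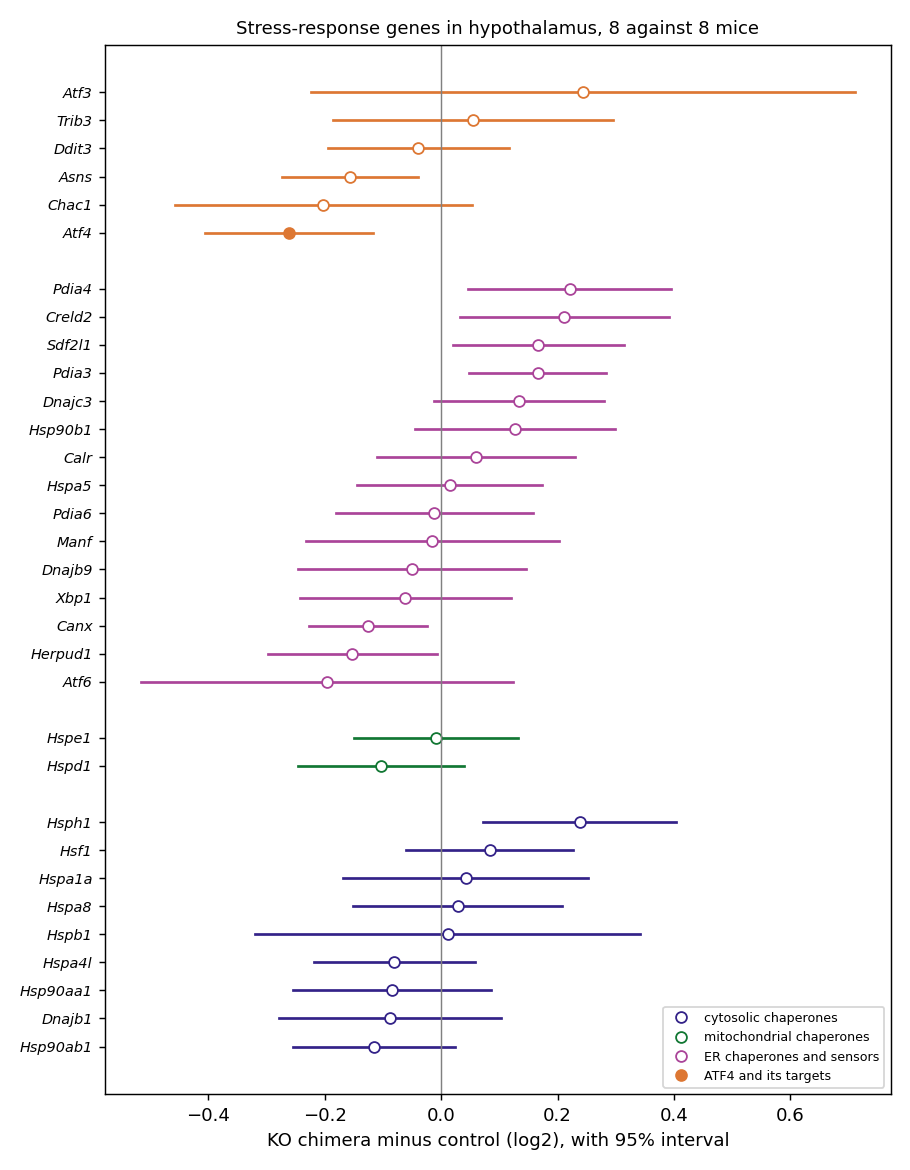
Difference between KO chimera and control (log2, x axis) for the 32 genes tested, by class, with 95% intervals from limma; filled points have an adjusted p under 0.05. Atf4 is the filled point, at −0.26, and most other intervals include 0.

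Of the 2 Atf4 probes, 1 gave a lower signal in KO chimeras. This gene encodes the transcription factor through which eIF2 alpha phosphorylation acts on amino acid and stress genes. Levels are log2 signals from which each array's 75th percentile was subtracted. On the probe at chr15:80087902-80087961 (mm9, plus strand) control mice ranged from 5.42 to 5.82 with a median of 5.65, and KO chimeras from 5.13 to 5.5 with a median of 5.38. All 8 KO chimeras lay below the control median, although the groups overlapped. How many of all genes have all 8 KO chimeras on the same side of the control median was not counted. The means were 5.61 ± 0.14 and 5.35 ± 0.11 (SD, n = 8 each), a difference of −0.26 ± 0.07 (SE; limma adjusted p = 0.0424). The signal of Atf4 on this probe fell by 16.6%. With all 12870 ways to assign mice to groups, the two-sided exact permutation p was 0.00109. In whole tissue, fewer cells that hold an RNA and less of it per cell cannot be told apart.

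The other Atf4 probe lies 1263 bases upstream, at chr15:80086639-80086698. There control mice ranged from −0.67 to −0.06 (median −0.46) and KO chimeras from −0.70 to −0.22 (median −0.49), and the groups overlapped nearly fully. The difference was −0.06 ± 0.09 (SE; limma adjusted p over all probes = 0.756). When every probe was tested, 2.61% of probes were called, and the first Atf4 probe missed the threshold (limma adjusted p = 0.0526). So 0 of 2 Atf4 probes were called in that fit. Whether the probes differed from each other was not tested. The last 30 bases of each probe are shown to tell the 2 probes apart. Capitals mark AATAAA, the canonical polyadenylation signal, which is in the first probe. Its part in the results was not tested.
Atf4, probe with the lower signal in KO chimeras: tgctgtgtttgctgtAATAAAttattttgt
Atf4, other probe: taacggacaaagataccttcgagttaagca

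**Figure D2:**
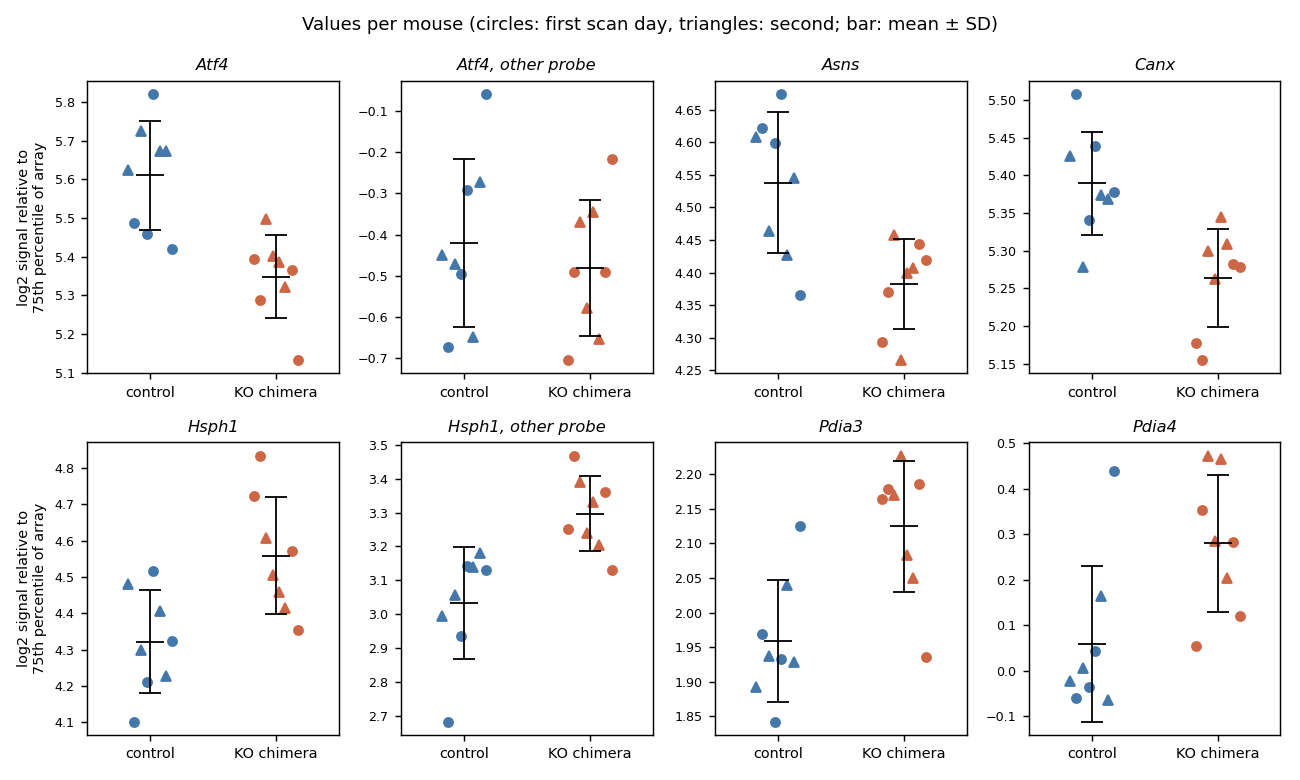
Each point is 1 mouse (log2 signal minus the 75th percentile of its array, y axis; circles the first scan day, triangles the second), with mean and SD over 8 mice per group. KO chimeras sit below the control median in all 8 mice for Atf4, Asns and Canx, and above it for Hsph1, Pdia3 and Pdia4, while the other Atf4 probe shows no such shift. The share of all genes with such a shift was not counted.

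The Atf4 difference was below 0 in each of 34 alternative settings, from −0.39 to −0.16, but it was called in 13 of them. These settings reuse the same mice. Several, such as the other filters, the block for scan day and the threshold of 0.1, leave the difference at −0.26. They are therefore not independent checks of its sign, and a threshold of 0.1 could not lose the call. Within the 5 slides that held both groups it was −0.22, −0.30, −0.03, −0.45 and −0.26, and slides 4 and 5 (−0.03 and −0.45) compare single animals. Slide 1 (−0.22) held a single control mouse and slide 3 (−0.30) a single KO chimera. Only slide 6 (−0.26) held 2 mice of each group. Within the 2 scan days it was −0.25 and −0.27. The call was lost when any of 12 of the 16 mice was left out. Without control 1, 3, 5, 6 or 7 the limma adjusted p was 0.0663, 0.0691, 0.0841, 0.0662 or 0.0816. Without KO chimera 1, 2, 4, 5, 6, 7 or 8 it was 0.0551, 0.0747, 0.0587, 0.0590, 0.0775, 0.0631 or 0.0639. It was lost as well when slide entered as a fixed block (limma adjusted p = 0.0584), with quantile normalization (0.106), with normexp background correction (0.0919), on the deposited value table (0.0982), with no filter on dim probes (0.0639) and with the mean of both probes (0.138).

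**Figure D3:**
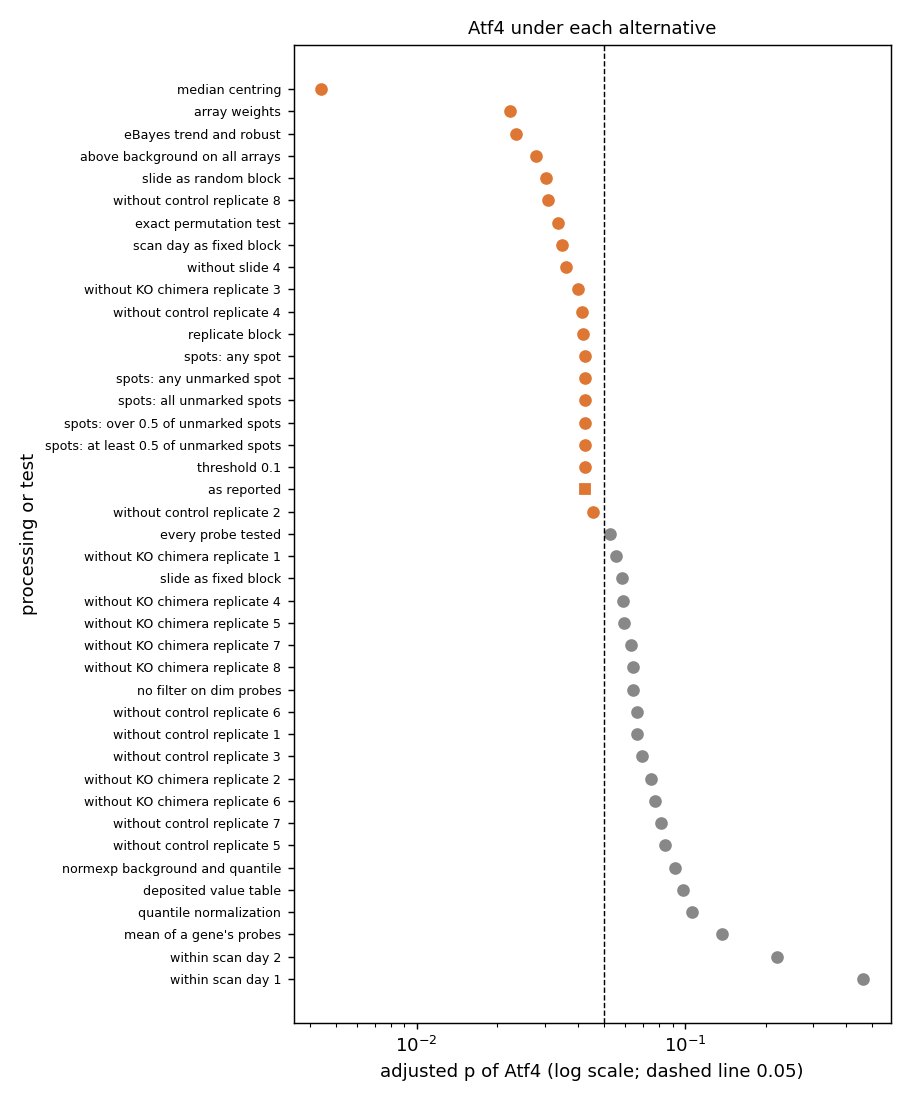
Limma (or permutation) adjusted p of Atf4 (x axis, log scale) under each processing or test setting (y axis), orange where the gene was called; the dashed line marks 0.05 and the square the value as reported. The reported value, 0.0424, lies close to the line, and settings fall on both sides of it.

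None of the 5 other ATF4 genes passed the test. Asns, asparagine synthetase, ranged from 4.37 to 4.67 (median 4.57) in control mice and from 4.27 to 4.46 (median 4.40) in KO chimeras. All 8 KO chimeras lay below the control median, with a difference of −0.16 ± 0.06 (SE; limma adjusted p = 0.118). Chac1, which degrades glutathione, differed by −0.20 ± 0.12 (SE; limma adjusted p = 0.356), and KO chimeras spanned 0.73 to 1.68 beside 1.19 to 1.69 in control mice. The stress factor CHOP, encoded by Ddit3, had a difference of −0.04 (SE 0.07), and Trib3, a pseudokinase that CHOP and ATF4 induce, one of 0.05 (SE 0.11). Atf3, an immediate stress factor, was the least precise at 0.24 ± 0.22 (SE; limma adjusted p = 0.561) and was well above background in 6 of 8 mice of each group. The 5 genes with the ATF4 and C/EBP element in the promoter (Asns, Atf3, Chac1, Trib3 and Herpud1) had differences from −0.20 to 0.24, with a median of −0.15. Pairs of genes were correlated after each group's mean was subtracted, with mice permuted within groups, so the shift between groups is left out. On such values of the 16 mice Atf4 and Asns had Pearson r = 0.14 (permutation p = 0.645) and Spearman rho = 0.02 (permutation p = 0.960). Pearson r was −0.07 without the 2 mice farthest from the median, 0.25 in control mice and −0.10 in KO chimeras.

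Among cytosolic chaperones Hsph1 stood furthest from 0. Hsph1 encodes HSP110, which exchanges nucleotide on HSP70 and helps dissolve aggregates. Its probe at chr5:150419744-150419803 (mm9) ranged from 4.10 to 4.52 (median 4.31) in control mice and from 4.35 to 4.83 (median 4.54) in KO chimeras. All 8 KO chimeras lay above the control median, but the difference of 0.24 ± 0.08 (SE) did not pass (limma adjusted p = 0.0959). A further Hsph1 probe, at chr5:150420110-150420169, gave 2.68 to 3.18 in control mice and 3.13 to 3.47 in KO chimeras, with a difference of 0.26 ± 0.07 (SE; limma adjusted p over all probes = 0.0652). Both probes therefore had the same sign and a like size. Hsph1 was called with quantile normalization (0.32, limma adjusted p = 0.0417).

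None of the other cytosolic chaperones had an unadjusted p under 0.05. Hspa1a, the inducible HSP70, ranged from −1.40 to −1.09 (median −1.33) in control mice and from −1.69 to −0.84 (median −1.18) in KO chimeras. Its difference was 0.04 ± 0.10 (SE; limma adjusted p = 0.846), with a wider spread in KO chimeras. The end of the probe that serves Hspa1a and Hspa1b, at chr17:35107117-35107176 (mm9, minus strand), is shown because it cannot separate them.
Hspa1a: ggaggtcatctcctggctggactccaacac
Dnajb1, the HSP40 partner of HSP70, differed by −0.09 (SE 0.09), and the small heat shock protein gene Hspb1 by 0.01 (SE 0.16). Hsf1 itself differed by 0.08 (SE 0.07). The HSP90 gene Hsp90aa1 gave −0.08 (SE 0.08), its relative Hsp90ab1 −0.12 (SE 0.07) and the HSP110 relative Hspa4l −0.08 (SE 0.07). For Hspa8, the constitutive HSP70, 3 probes gave 0.03, 0.02 and −0.01. A further Hsp90aa1 probe was not well above background in any mouse and was not tested. In 6 tested genes with a heat shock element of either pair in the promoter the differences ran from −0.16 (Asns) to 0.24 (Hsph1), with a median of 0.00. Across the 16 mice, with each group's mean subtracted, Hsph1 had Pearson r = 0.05 with Hspa1a (permutation p = 0.868) and 0.04 with Dnajb1 (permutation p = 0.881). Spearman rho was −0.02 with Hspa1a (permutation p = 0.955) and 0.09 with Dnajb1 (permutation p = 0.738).

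Neither mitochondrial chaperone passed the test. Hspd1 (HSP60) ranged from 4.48 to 4.80 in control mice and from 4.34 to 4.78 in KO chimeras, a difference of −0.10 ± 0.07 (SE; limma adjusted p = 0.400). Hspe1 (HSP10), its lid, gave −0.01, −0.02 and −0.01 on 3 probes; the first and the last of these overlap on the genome and share most of their bases. The pair is transcribed from opposite strands of 1 promoter region. Across the 16 mice, with each group's mean subtracted, their levels had Pearson r = 0.49 (permutation p = 0.0554) and Spearman rho = 0.43 (permutation p = 0.111). Without the 2 mice farthest from the median of Hspd1 r was 0.36, and it was 0.70 in control mice and 0.26 in KO chimeras. It was 0.65 on the first scan day and 0.39 on the second. Of 12 pairs of genes compared in this way, chosen after values had been seen, 0 passed after Benjamini-Hochberg adjustment; the lowest adjusted p was 0.565 and 0 of 12 had an unadjusted p under 0.05.

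ER genes held both signs, and 0 of 15 passed the test. Of them 6 had an unadjusted p under 0.05, 4 above and 2 below 0. The disulphide isomerase gene Pdia3 ranged from 1.84 to 2.13 (median 1.94) in control mice and from 1.94 to 2.23 (median 2.17) in KO chimeras. All 8 KO chimeras exceeded the control median, with a difference of 0.17 ± 0.06 (SE; limma adjusted p = 0.101). Pdia4, a further isomerase, ranged from −0.06 to 0.44 (median −0.01) in control mice and from 0.06 to 0.47 (median 0.28) in KO chimeras. Here the control mouse at 0.44 stood apart from the others of its group, and the difference was 0.22 ± 0.08 (SE; limma adjusted p = 0.136). Without that mouse, control 8, Pdia4 was called at 0.27 (limma adjusted p = 0.0390). Without slide 4, which held that mouse and KO chimera 1, it was called at 0.31 (limma adjusted p = 0.0257), an alternative chosen after the data were seen. Within slide 4 the difference was −0.38, and within the other 4 slides with both groups it was between 0.24 and 0.43. Slides 4 and 5 compare single animals, slide 1 held a single control mouse and slide 3 a single KO chimera. Only slide 6 (0.28) held 2 mice of each group.

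Creld2, a gene induced by ER stress, ranged from 2.35 to 2.86 (median 2.63) in control mice and from 2.61 to 3.10 (median 2.86) in KO chimeras. The difference was 0.21 ± 0.09 (SE; limma adjusted p = 0.168), with 7 of 8 KO chimeras above the control median. This probe was printed on 10 spots of each array. Single spots within an array had an SD of 0.07. Averages over the 10 spots had an SD of 0.17 between animals of a group, so the 2 values are unlike measures. Sdf2l1, a partner of BiP, ranged from −0.54 to −0.23 in control mice and from −0.49 to −0.11 in KO chimeras, with a difference of 0.17 ± 0.07 (SE; limma adjusted p = 0.184). On the other side of 0, Canx, the membrane lectin calnexin, ranged from 5.28 to 5.51 (median 5.38) in control mice and from 5.15 to 5.35 (median 5.28) in KO chimeras. Its difference was −0.13 ± 0.05 (SE; limma adjusted p = 0.143), and all 8 KO chimeras lay below the control median. Herpud1, a part of ER-associated degradation, differed by −0.15 ± 0.07 (SE; limma adjusted p = 0.217), again with all 8 KO chimeras below the control median.

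The other 9 ER genes had an unadjusted p above 0.05. Hspa5 encodes BiP, the main ER chaperone and the one that releases the sensors. It ranged from 5.09 to 5.74 (median 5.42) in control mice and from 5.30 to 5.55 (median 5.44) in KO chimeras. The difference of 0.01 ± 0.08 (SE) has a 95% interval from −0.14 to 0.17. Xbp1 differed by −0.06 (SE 0.09), Manf, a secreted survival factor, by −0.02 (SE 0.10), and calreticulin (Calr) by 0.06 (SE 0.08). Hsp90b1, which encodes GRP94, differed by 0.13 (SE 0.08) and Dnajc3, an inhibitor of PERK, by 0.13 (SE 0.07). The sensor Atf6 differed by −0.20 ± 0.15 (SE; limma adjusted p = 0.484). Pdia6 gave −0.01 (SE 0.08) and 0.09 (SE 0.05) on 2 probes. For the BiP partner Dnajb9 a probe gave −0.05 (SE 0.09) and another 0.22 (SE 0.12), but the latter also lists Gm6568 in the array's annotation. The 7 genes with the ER stress response element spanned −0.13 (Canx) to 0.21 (Creld2), with a median of 0.06.

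**Figure D4:**
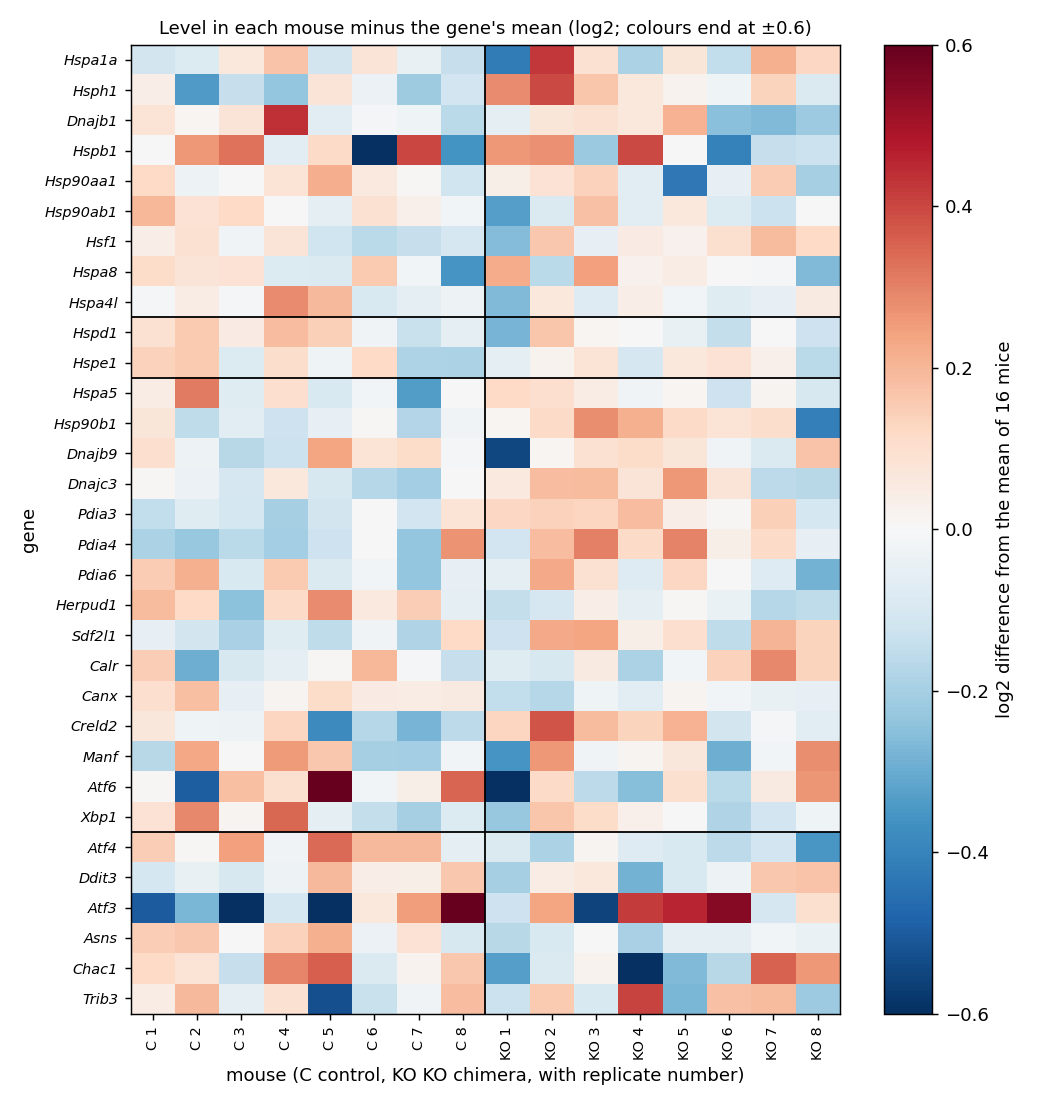
Level of the 32 genes (rows, by class) in each mouse (columns; C control, KO KO chimera, with replicate number) minus the gene's mean over 16 mice (log2; colours end at ±0.6). Class medians differ by −0.10 to 0.01 between the groups, and single mice depart from the gene's mean in both directions in each class.

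The classes were also read mouse by mouse. A mouse's score for a class is the mean over its genes of the level minus the gene's mean. Cytosolic chaperone scores ran from −0.16 to 0.08 in control mice and from −0.10 to 0.14 in KO chimeras. ER scores ran from −0.12 to 0.03 and from −0.14 to 0.12, and ATF4 scores from −0.11 to 0.22 and from −0.17 to 0.08. The ranges overlapped in each class. No test was made of these scores.

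Other genes of the same pathways were read from lists of their functions. Of 137 such genes 134 were tested; 3 were called lower and 0 higher, or 2.24% beside 3.83% of all genes. Differences were below 0 for 87 and above 0 for 47, with a median of −0.05. Psat1, the phosphoserine aminotransferase of serine synthesis and an ATF4 target, fell from a control median of 3.19 (3.00 to 3.42) to 2.84 (2.73 to 2.96) in KO chimeras. The groups did not overlap, and the difference was −0.35 ± 0.06 (SE; limma adjusted p = 0.0130). A second Psat1 probe had a difference of −0.21 ± 0.13 (SE; limma adjusted p = 0.376 in the fit of every probe). Psat1 was called in 31 of 34 alternatives, and after leaving out any of the 16 mice; it was not called with the mean of a gene's probes or within either scan day.

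Dnajb6, an HSP40 that holds back aggregation of polyglutamine proteins, fell from 2.48 (2.33 to 2.53) to 2.19 (1.99 to 2.28), medians with ranges. Its groups did not overlap either, with a difference of −0.27 ± 0.05 (SE; limma adjusted p = 0.0156). An overlapping probe gave −0.24, while 2 probes elsewhere in the gene gave −0.02 and −0.01. Dnajb6 was called in 30 of 34 alternatives. Dnajb5, a relative, fell by 0.20 on the log2 scale (limma adjusted p = 0.0424) and was called in 12 of 34; its other probe had 0.15 (limma adjusted p = 0.732 in the fit of every probe). Not passing were the PERK gene Eif2ak3 at −0.29 (limma adjusted p = 0.0716) and Ddit4 at −0.28 (0.107). Tmem33 at −0.21 (limma adjusted p = 0.103), the translocon gene Sec61a1 at −0.16 (0.123) and Dnajc25 at −0.20 (0.146) did not pass either. Other Tmem33 probes gave 0.08 and −0.30 (limma adjusted p = 0.660 and 0.420 in the fit of every probe). A further Dnajc25 probe gave −0.17 (limma adjusted p = 0.655 in that fit). Among ER folding and degradation genes 0 of 45 were called, with 6 at an unadjusted p under 0.05; among amino acid and stress response genes 1 of 42, and among other chaperones 2 of 47.

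Other features of the same arrays differed between the groups, with list medians in both directions. In each marker list 0 genes were called higher. Between 27276 (KO chimera 1) and 43248 (control 8) of 59305 spots were well above background, and both extremes lay on slide 4. Of 15 hypothalamus markers, 13 were well above background in all 16 mice, with summed levels of 8.90 to 9.44 in control mice and 8.57 to 9.57 in KO chimeras; 10 of the 14 tested were above 0, with a median of 0.15 and 0 called. Markers of ependyma and tanycytes were above 0 in 8 of 8 cases (median 0.50, 0 called, 5 at an unadjusted p under 0.05), and their summed level ran from 3.04 to 4.46 in control mice and from 4.04 to 4.94 in KO chimeras. Endothelium and mural cell markers had a median of 0.09, with 7 of 9 above 0 and 0 called. Thalamus markers were lower in KO chimeras in 13 of 14 cases (median −0.72, 2 called lower), and their summed level ran from 5.72 to 7.31 in control mice and from 5.18 to 6.38 in KO chimeras. Oligodendrocyte markers had a median of −0.36 (4 of 13 called lower; 7.96 to 8.54 beside 7.60 to 8.44), and microglia markers one of −0.22 (3 of 12; 6.44 to 6.77 beside 6.45 to 7.0). Red blood cell genes were below 0 in 6 of 6 cases (median −0.29, 1 called lower; 6.11 to 6.89 beside 5.82 to 6.52). Glucocorticoid-induced genes were below 0 in 14 of 14 cases (median −0.29, 7 called lower; 8.14 to 8.62 beside 8.0 to 8.37); Ddit4 is in this list as well. Neuron markers were below 0 in 10 of 12 cases (median −0.14, 1 called lower). Immediate early genes were below 0 in 10 of the 13 tested (median −0.28, 1 called lower). The part of these lists in the Atf4, Psat1, Dnajb6 and Dnajb5 results was not tested.

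**Figure D5:**
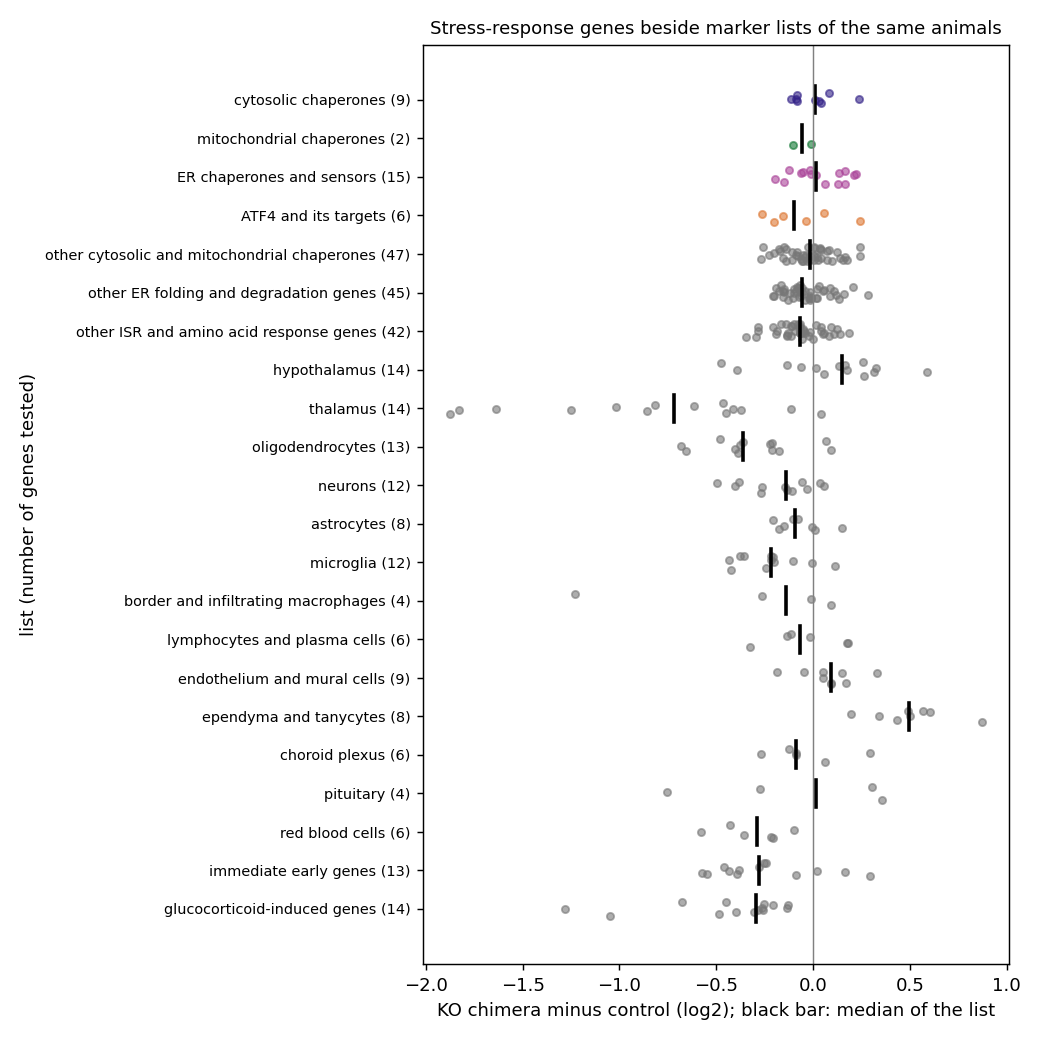
Difference between KO chimera and control (log2, x axis) of each gene tested in the stress-response classes, the pathway lists and all 15 marker lists of the same mice (y axis, number tested in brackets), with the median as a black bar. The stress-response medians lie between −0.10 and 0.01, and those of the marker lists between −0.72 (thalamus) and 0.50 (ependyma and tanycytes).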

How the data were processed

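Total RNA from the hypothalamus of 16 mice was labelled with Cy3, 1 mouse per array. The authors deposited scanner output from Agilent Feature Extraction 10.7 (named in the submitters' processing notes), in which, per the file headers, the processed intensity of a spot is linear with background removed. A second deposited file holds log2 values; how the authors normalized them was not stated. Its array medians were 5.21 to 5.26, and they served as an alternative. Positions are mm9, per the file headers.

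Control spots and spots marked as outliers were left out. Each array's 75th percentile was subtracted from log2 processed intensity, and a probe's spots were averaged. Kept were 35144 probes that stood well above background on 8 or more arrays, and each gene's probe with the highest mean was tested (24363 genes) in limma 3.58.1 under R 4.3.3 (lmFit, then eBayes), adjusting p by Benjamini-Hochberg. A probe with several spots counted as above background where at least 0.5 of its spots did. The plan did not fix that rule. The first run counted any unmarked spot; 6 definitions were then compared with results in view, and this one was kept because it gave the probe number of an earlier processing of these files. Across the 6 the genes tested numbered 24346 to 24384, the genes called 933 to 936, and the Atf4 adjusted p stayed between 0.0423 and 0.0424.

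The genes, the lists and the tests were chosen with earlier results of these data known. Named genes are all 33 chosen genes and, of each pathway list, the 3 with the smallest p, of which 1 is not reported here. In a simulation of this comparison with 24363 genes, 10.4% of 67 genes changed by 0.25 (log2), 56.7% of 67 changed by 0.5 and 90.9% of 66 changed by 1 were called, with 6 false calls. Its changed genes were drawn from all genes, whose median SD between animals was 0.20, beside 0.16 for the 32 genes. Fewer genes were changed in it than the 933 called in the data. Its rates therefore need not hold for the 32 genes. The arrays lay on 6 slides and were scanned on 2 days, 4 mice of each group per day. The alternatives were other scalings, filters, probe choices, blocks for slide, day and replicate number, variance models, the deposited table, each mouse left out, and an exact permutation test. Plots come from matplotlib 3.10.9 under Python 3.11.15.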

Additional observations from a re-analysis of the deposited data

Results flagged for a closer look

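In 8 of 80 combinations of a probe and a group, 1 mouse lay far from the other 7 by Dixon's test; chance flags about 5% of groups. The control mice were replicate 4 for Dnajb1 (4.94, group median 4.5), replicate 8 for Hspa8 (7.68, median 8.06) and Pdia4 (0.44, median −0.01), and replicate 5 for Trib3 (−2.67, median −2.13). The KO chimeras were replicate 1 for Hspa4l (2.90, median 3.13) and Dnajb9 (0.98, median 1.57), replicate 8 for Hsp90b1 (4.72, median 5.24) and replicate 6 for a Pdia6 probe (1.57, median 1.69). Of the 8 flagged values, 4 came from the 2 mice of slide 4, the arrays with the most and the fewest spots above background.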

How the results depend on the processing

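The count of stress-response genes called, 1 as reported, was 5 with median centring (Asns, Atf4, Canx, Herpud1 and Hsp90ab1), 2 with array weights, a threshold of 0.1, the exact permutation test or without slide 4, and 0 on the deposited value table, with no filter, with the mean of a gene's probes, with every probe tested, when slide was a fixed block and within each scan day. It was 1 with quantile normalization (Hsph1) and with normexp (Pdia3), so the gene called changed. The normexp setting includes quantile normalization. Leaving out each mouse gave 0 to 2. The count of Atf4 probes called, 0 as reported, was 1 with median centring, the filter on all arrays, the slide as a random block, scan day as a block, trend and robust variance, array weights, a threshold of 0.1, permutation and without slide 4, and 0 to 1 with each mouse left out. The count of other pathway genes called, 3 as reported, was 34 with median centring, 5 with the filter on all arrays or a threshold of 0.1, 1 with normexp, and 0 with the mean of a gene's probes and within each scan day; leaving out each mouse gave 2 to 4. No called difference of a stress-response gene or of an Atf4 probe changed sign. Signs of the other pathway genes were not compared across settings. The 5 other ways to combine spots, chosen after the data were seen, gave 1, 0 and 3 as reported. Whether replicate numbers pair the mice was not tested. Same-numbered mice correlated above 0.1 in 3 of 8 pairs, and 3 of 8 matched their own number best. With a replicate block 1 stress-response gene was called (Atf4, limma adjusted p = 0.0416), and 812 genes in all. The cause of these changes was not tested. In the simulation, with changed genes drawn from all genes, a difference of 0.25 was mostly missed at 8 mice per group. The share missed among the stress-response genes was not simulated. Genes not called are not shown to be equal.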
